A study of Salmo salar with 6 samples.

Results

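The 8 genes described here mark T lymphocytes and the lymphocytes that kill other cells. The helper and regulatory side was represented by 5 genes (lck, CD4, gata3, foxp3b and bcl11ba) and the cytotoxic side by 3 (eomes, gzma and prf1.5). Of the 5, lck and bcl11ba belong to T cells in general and were grouped there. They were chosen by name, and their probes were found through the RefSeq accession in each probe's name, which gave 9 probes of the 42386 on the array and 8 genes of the 25460 with a probe. Gene gata3 had 2 probes and each of the others had 1. The names lck and CD4 came from synonyms of genes whose own symbol in the RefSeq table is only a locus number. The table holds 2 genes with the name CD4, of which 1 had a probe. A probe of gata1, whose entry in the table also lists gata3 as a synonym, was not used.

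The RNA came from the head kidney of juvenile Atlantic salmon (252 g), the organ where bony fish form blood cells and house lymphocytes. The MPLE fish had been fed a basal diet with 0.1% inclusion of a sage and lemon verbena extract, which holds ursolic acid, other triterpenes, verbascoside and polyphenols, and the control fish the same basal diet with 0% inclusion, both for 133 days. Each diet had 3 pools of RNA from 6 fish, and each pool was labelled with Cy3 and hybridised to its own one-colour array. Which tanks supplied a pool is not given in the labels, so p-values describe the spread between pools together with that between arrays.

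T cells recognise antigen through a receptor whose signal is passed on by the kinase Lck, which sits on the tail of the coreceptors CD4 and CD8. In mammals, helper T cells carry CD4 and depend on GATA3 for the type of help given to antibody and mucosal responses, regulatory T cells depend on FOXP3, and BCL11B holds precursors to the T cell fate. Cytotoxic T cells and natural killer cells use the T-box factor Eomesodermin, make pores in target cells with perforin and deliver granzymes through them. Bony fish have genes of the same families, and the head kidney holds T cells beside B cells, myeloid cells and red cell precursors.

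The levels below are log2 processed intensities relative to the 75th percentile of the same array, so a level of 0 is as bright as that percentile. A level compares arrays for 1 probe, and levels of different probes are not compared. A difference is given as MPLE minus control. In bulk RNA, fewer cells of a type and less RNA per cell cannot be told apart.

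Control pool 3 stood apart from the other arrays. Its 75th percentile was 133 intensity units, against 485 to 709 on the MPLE arrays and 394 and 468 on the other control arrays. Fewer of its spots were well above background, 18046 against 24841 to 33020 on the other 5 arrays. On that array the processed intensity also departed far from the background-subtracted intensity it is derived from. Their ratio ran from 0.346 to 3.73 between the 1st and 99th percentiles of spots well above background with a background-subtracted intensity over 50 units, against 0.812 to 1.22 over the MPLE arrays, 0.737 to 1.69 on control pool 1 and 0.844 to 1.14 on control pool 2. The differences of the 8 genes, the list medians and the differences of the named list genes that it moved by over 1.5 times are therefore also given without control pool 3. Each array lay on its own slide, 0 of 6 slides held both diets, and the 3 MPLE arrays were scanned after every control array, so diet cannot be told apart from slide or from scan order.

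Among the 8 genes, the MPLE pools of lck, CD4 and eomes all lay above the control pools, by 1.58-fold, 1.50-fold and 2.06-fold. The other 5 overlapped between the diets, with gata3, foxp3b, gzma and prf1.5 at log2 differences between -0.35 and -0.21 and bcl11ba at 0.13. None of the 8 passed limma at an adjusted p under 0.05, and 3 were under 0.05 before adjustment. Over all 23130 probes tested, 0.467% passed after adjustment and 17.4% were under 0.05 before it. The MPLE arrays lay wholly above the control arrays for 16.3% of these probes and wholly below for 11.9%, 28.2% in all. The 3 genes that did not overlap were also those at an unadjusted p under 0.05. All 3 were higher and 0 were lower, where 11.5% of probes were higher and 5.89% lower at that threshold. Among the 3 genes, eomes had a dim spot on control pool 3. It entered the test through the MPLE arrays alone, where it was higher, so its separation, p and fold carry that selection. A stricter filter, which dropped any gene with a dim spot, kept 6 of the 8 genes. There lck and CD4 were the 2 separated genes and the 2 at an unadjusted p under 0.05 by limma. Of the 16868 probes that this filter kept, 1472 were higher and 1443 lower at that threshold. For 12.5% of them the MPLE arrays lay wholly above the control arrays.

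**Figure D1:**
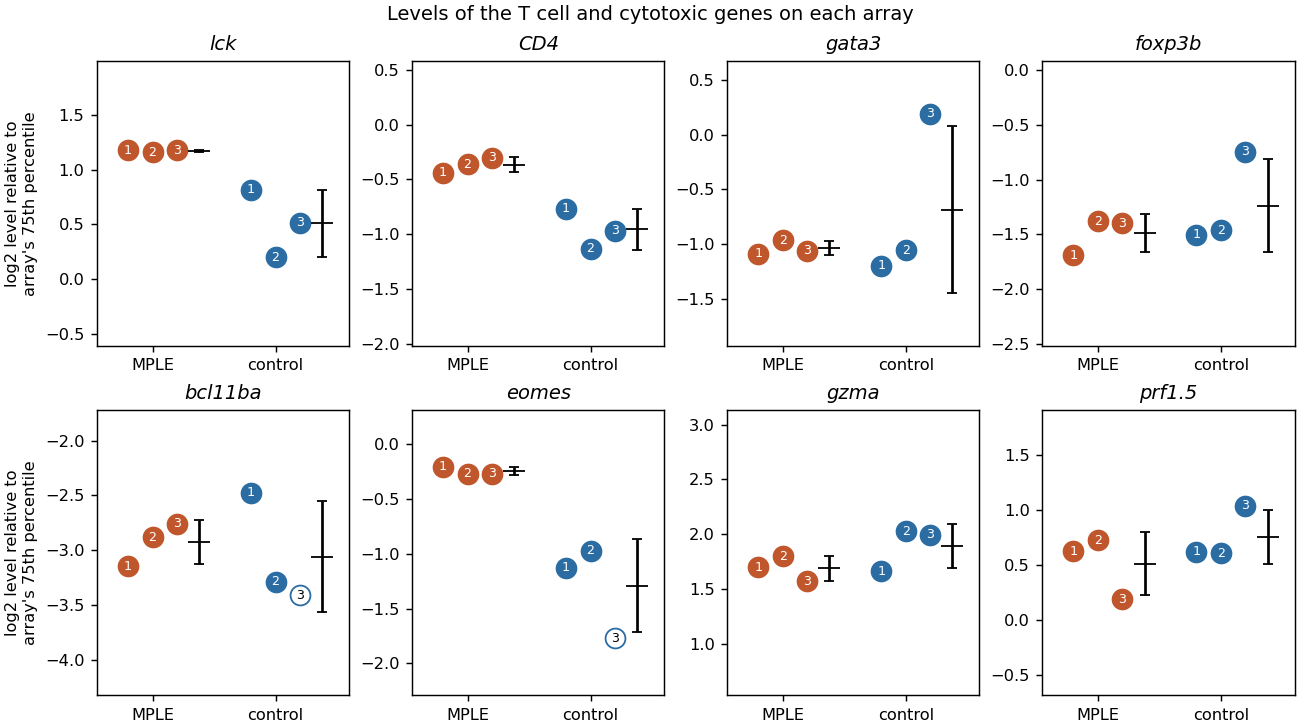
Level of each gene on each array, as log2 intensity relative to the array's 75th percentile, with MPLE pools in orange and control pools in blue; numbers are pools, open circles are spots not well above background, and bars are the mean and SD of 3 pools. Genes lck, CD4 and eomes show 3 MPLE points above all 3 control points, and in gata3 and foxp3b control pool 3 lies above the other 5 arrays.

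On the helper side, the level of lck was 1.18, 1.16 and 1.18 in MPLE pools 1, 2 and 3, against 0.81, 0.20 and 0.51 in control pools 1, 2 and 3. The MPLE pools lay close together while the control pools were spread out, and the lowest MPLE pool was 0.34 above the highest control pool. The mean was 1.17 ± 0.01 with MPLE and 0.51 ± 0.31 in controls (SD, n = 3 each). The difference was 0.66 (SE 0.26, 95% interval 0.06 to 1.26), with an adjusted p = 0.2545 by limma. Of all tested probes, 19.3% had a larger positive difference.

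CD4, the coreceptor of helper T cells, stood at -0.44, -0.36 and -0.30 in the MPLE pools, against -0.77, -1.14 and -0.97 in the control pools. Every MPLE pool was again higher than every control pool, with a gap of 0.33. The means were -0.37 ± 0.07 with MPLE and -0.96 ± 0.18 in controls (SD, n = 3 each), a difference of 0.59 (SE 0.23, 95% interval 0.04 to 1.14) with an adjusted p = 0.2643 by limma. As for lck, control pool 1 was the highest of the controls and control pool 2 the lowest.

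The level of gata3, the factor of one helper lineage in mammals, was -1.09, -0.97 and -1.06 in the MPLE pools and -1.20, -1.05 and 0.19 in the control pools. Control pool 3 was the highest of all arrays, and the other 5 lay close together. The difference was -0.35 (SE 0.40, 95% interval -1.29 to 0.58, adjusted p = 0.6411 by limma), and 0.09 without control pool 3. The second gata3 probe was well above background on 2 of 3 MPLE arrays and 0 of 3 control arrays and was not tested. Its levels were -2.54, -4.44 and -5.94 in the MPLE pools and -4.99, -3.68 and -3.27 in the control pools, which overlapped.

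The regulatory T cell factor foxp3b stood at -1.69, -1.38 and -1.40 in the MPLE pools and -1.50, -1.46 and -0.75 in the control pools. As with gata3, control pool 3 was the highest array and the remaining arrays overlapped. The difference was -0.25 (SE 0.30, 95% interval -0.95 to 0.44, adjusted p = 0.654 by limma), and -0.01 without control pool 3.

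The T cell commitment factor bcl11ba was near background. Its level was -3.15, -2.88 and -2.76 in the MPLE pools and -2.48, -3.29 and -3.41 in the control pools, and on control pool 3 the spot was not well above background. The gene therefore entered the comparison through the MPLE arrays alone. The highest array and the lowest were both controls. The difference was 0.13 (SE 0.32, 95% interval -0.63 to 0.89, adjusted p = 0.8398 by limma), and -0.05 without control pool 3.

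On the cytotoxic side, eomes had the widest separation of the 8 genes. The level of this T-box factor was -0.21, -0.27 and -0.27 in the MPLE pools, against -1.13, -0.97 and -1.77 in the control pools. The MPLE pools lay together and above all controls, with a gap of 0.70 between the lowest MPLE pool and the highest control pool. The mean was -0.25 ± 0.04 with MPLE and -1.29 ± 0.42 in controls (SD, n = 3 each). The difference was 1.04 (SE 0.29, 95% interval 0.37 to 1.71), with an adjusted p = 0.14 by limma, and 10.6% of tested probes had a larger positive difference. The spot was not well above background on control pool 3, so the gene entered the comparison through the MPLE arrays alone. Without control pool 3 the difference was 0.80 with an adjusted p = 0.114 by limma.

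Granzyme A, gzma, is a serine protease of killer cell granules. Its level was 1.699, 1.797 and 1.567 in the MPLE pools and 1.663, 2.025 and 1.995 in the control pools. The diets overlapped, since control pool 1 lay among the MPLE pools. The means were 1.69 ± 0.12 with MPLE and 1.89 ± 0.20 in controls (SD, n = 3 each), a difference of -0.21 (SE 0.24, 95% interval -0.77 to 0.36, adjusted p = 0.6503 by limma), and -0.16 without control pool 3.

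The perforin gene prf1.5, of the family that makes the pore, was at 0.62, 0.72 and 0.19 in the MPLE pools and 0.62, 0.61 and 1.04 in the control pools. MPLE pool 3 was the lowest array and control pool 3 the highest, with the other 4 between 0.61 and 0.72. The difference was -0.24 (SE 0.27, 95% interval -0.88 to 0.40, adjusted p = 0.6369 by limma), and -0.10 without control pool 3. On control pool 3 its processed intensity was 274 units and its background-subtracted intensity 79.2, a ratio of 3.46.

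That ratio varied over the members on control pool 3 more than on any other array. It ran from 0.498 for gzma to 3.46 for prf1.5 over 7 of the genes, and bcl11ba had no ratio because its background-subtracted intensity was below 0. On the MPLE arrays the same ratio lay between 0.873 and 1.21 for the 8 genes. On the other control arrays it lay between 0.747 and 1.27. The part of this ratio in the differences was not tested beyond the values without control pool 3 and the background settings given in the closing section.

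**Figure D2:**
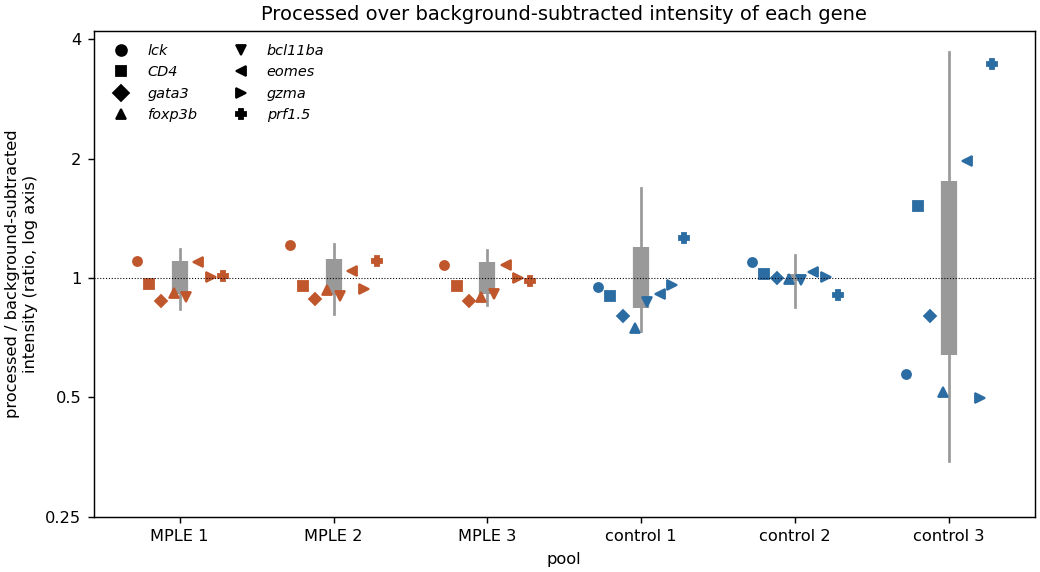
Ratio of processed to background-subtracted intensity for the genes on each array, on a log axis, with MPLE arrays left of control arrays; grey boxes span the quartiles and grey lines the 1st to 99th percentiles of spots well above background with a background-subtracted intensity over 50. The points lie between 0.747 and 1.27 on 5 arrays and run from 0.498 to 3.46 on control pool 3.

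The lck, CD4 and eomes values were next set against all probes. Control pools spread more than MPLE pools over the whole array, with a median SD of 0.21 among MPLE pools and 0.50 among control pools. The median difference of all tested probes was -0.01, and 49.3% of them were above 0. Among the 16868 probes well above background on all 6 arrays, as lck and CD4 were, the median was -0.13, and 12.5% had every MPLE array above every control array. Without control pool 3, lck differed by 0.66 (adjusted p = 0.2449 by limma) and CD4 by 0.58 (adjusted p = 0.2318). Leaving out an array cannot make separated diets overlap, so their separation was not put to a test by this.

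**Figure D3:**
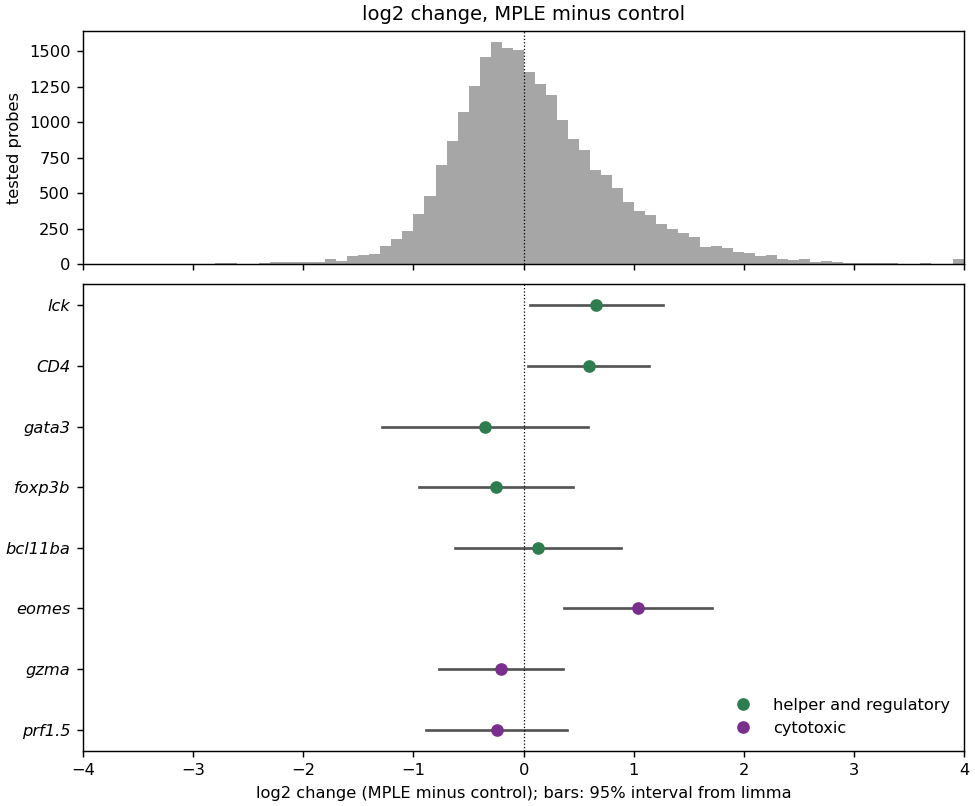
Difference of each gene, MPLE minus control on the log2 scale, with its 95% interval from limma, under a histogram of the differences of all 23130 tested probes, whose end bars also hold the 35 probes beyond 4 in either direction. The intervals of lck, CD4 and eomes lie above 0, and those of the other 5 genes include 0.

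The helper and cytotoxic genes did not separate as groups. The 3 cytotoxic genes had a median difference of -0.21, with 1 of 3 above 0, and the 5 helper and regulatory genes a median of 0.13, with 3 of 5 above 0. Cytotoxic minus helper was -0.34, while eomes, with the largest difference of the 8, belongs to the cytotoxic genes. This value depends on the grouping, since lck and bcl11ba are not particular to helper cells. The remaining helper and regulatory genes CD4, gata3 and foxp3b were at 0.59, -0.35 and -0.25. Over all 8, 4 were above 0 and the median was -0.04, beside -0.01 for all tested probes. Without control pool 3 the difference of the medians was -0.19. Their order turned in other versions of the signal. Cytotoxic minus helper was 0.69 with median spot signals corrected by normexp, and 0.48 in the authors' log2 values scaled to their 75th percentile. In these settings the cytotoxic median was the value of prf1.5, 0.23 and 0.54, while gzma stayed below 0 at -0.35 and -0.37. The helper median was -0.46 and 0.06. In the scaled series values it was the value of bcl11ba, which has no log2 value on control pool 3, its background-subtracted intensity there being below 0. The medians of 0.54 and 0.06 therefore do not cover the same arrays.

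The pattern over the 6 arrays was compared by the root mean square difference between log2 levels, after each gene's own mean was subtracted. Of 5496 named genes measured on all arrays, the nearest to lck were stx7, a syntaxin of endosomes, at 0.07, apip, an enzyme of methionine salvage, at 0.07, and CD4 at 0.09. The median distance from lck to all named genes was 0.52. From CD4, 7 genes lay closer than lck. The nearest to eomes were tango6 at 0.06, the lysosomal enzyme idua at 0.11 and metA at 0.12. The genes eomes and lck were 0.38 apart, wider than gzma and prf1.5 at 0.18 or gata3 and foxp3b at 0.22. The widest pair was eomes and gata3, at 0.98. Without control pool 3, lck and CD4 were 0.10 apart, eomes and lck 0.25, gzma and prf1.5 0.17, gata3 and foxp3b 0.10, and eomes and gata3 0.35. These distances cover 6 arrays that share the 2 diets and control pool 3, and they are a description.

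Other genes of T cells were taken from 5 lists. Of 74 such genes on the array 60 were tested, members included. None passed limma after adjustment, the smallest adjusted p being 0.1117, and 12 were under 0.05 before it, 9 higher and 3 lower. Every MPLE array lay above every control array for 13 genes (21.7%) and below for 6 (10%). Among the 13, pik3r1 was compared without control pool 3, where its spot was left out as an outlier. Also among the 13, cd40lg, stim1a, lat, eomes and ifng passed the filter through the MPLE arrays alone, where they were higher. Among the 6, ikzf2 passed it through the control arrays alone. The shares over all 15507 tested genes, which also hold genes that passed through a single diet, were 16% and 11%. The median difference of the 60 was 0.05, beside -0.02 over all genes. Of all tested genes, 0.303% passed after adjustment, 15.3% were under 0.05 before it and 48.5% were above 0.

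The list of the T cell receptor, coreceptors and costimulation had 8 genes on the array and all were tested. Of these 6 were above 0, with a median of 0.39. Genes cd40lg, CD4 and cd8a were at an unadjusted p under 0.05 by limma, as were 15.3% of all tested genes. Without control pool 3 only 3 of the 8 were above 0 and the median was -0.03. CD8 alpha, cd8a, the coreceptor of cytotoxic T cells, was at 0.69, 0.83 and 0.73 in the MPLE pools, against 0.40, 0.21 and -0.53 in the control pools, and did not overlap (0.73, adjusted p = 0.2832, and 0.45 without control pool 3). The CD3 epsilon chain, cd3e, which every T cell carries with its receptor, was at 0.49, 0.27 and 0.25 with MPLE and 0.48, 0.29 and -2.16 in controls. Only control pool 3, where the spot was not well above background, lay far from the other arrays (0.80, adjusted p = 0.5352, and -0.05 without that pool). The CD40 ligand gene, cd40lg, through which helper T cells activate B cells, was well above background on 0 of 3 control arrays. It was at -3.07, -3.57 and -3.16 with MPLE, against -5.29, -5.23 and -4.10 in controls. The gene entered the comparison through the MPLE arrays alone, and its difference rests on control signals too dim to give a fold. The measured difference was 1.61 (adjusted p = 0.1117), and -0.49 after normexp correction. Without control pool 3 it had an adjusted p = 0.04537 by limma, which rests on the same dim signals. The adhesion receptor cd226 was lower in every MPLE pool than in every control pool (-0.42, adjusted p = 0.4086, and -0.34 without control pool 3).

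**Figure D4:**
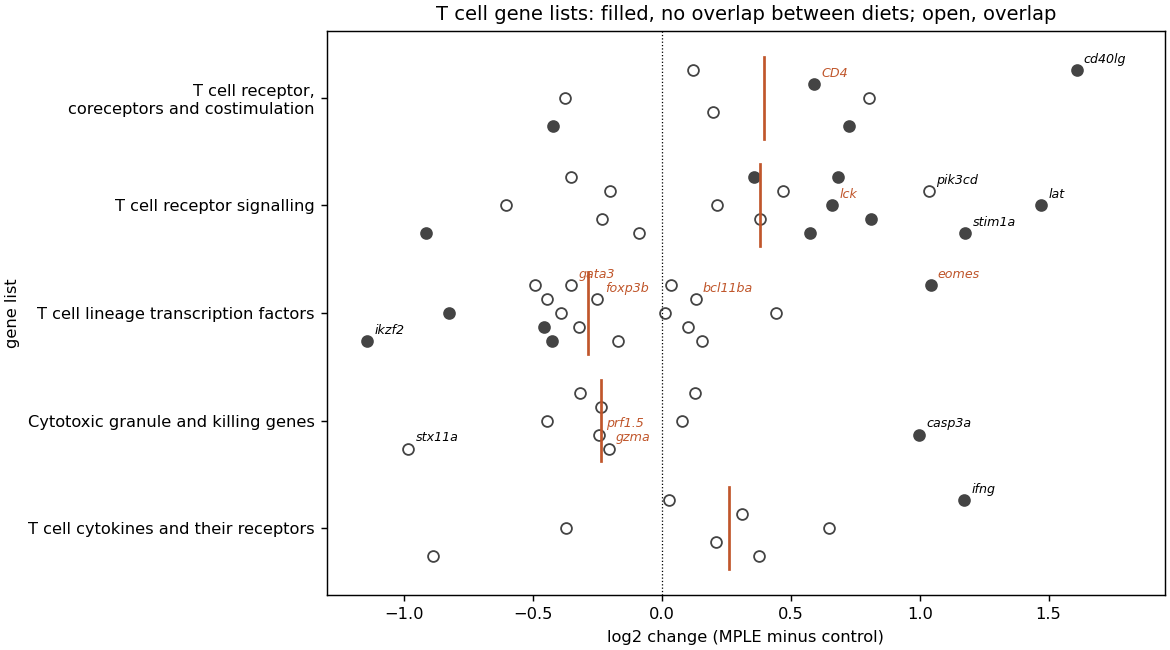
Difference of each tested gene of the 5 T cell lists, MPLE minus control on the log2 scale, with 1 row per list and the list's median as an orange bar; filled points are genes whose diets did not overlap and orange names are the 8 genes. The medians run from -0.29 for transcription factors to 0.39 for receptors and coreceptors, and no point passed the adjusted threshold.

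Of 22 receptor signalling genes on the array 17 were tested, with 11 above 0, a median of 0.38 and 4 at an unadjusted p under 0.05. Leaving out control pool 3 gave a median of 0.19. The adaptor grap2 was at 7.21, 7.31 and 7.14 with MPLE, against 6.39, 6.29 and 6.56 in controls, with no overlap (0.81, adjusted p = 0.1496). The calcium sensor stim1a differed by 1.18 (adjusted p = 0.2137), with 1 control array well above background, and by -0.36 after normexp correction. The kinase fynb, a relative of Lck, lay on the other side, at 1.01, 1.13 and 0.92 with MPLE and 1.59, 1.49 and 2.73 in controls (-0.92, adjusted p = 0.2712, and -0.52 without control pool 3). The thymocyte signalling protein themis differed by 0.57 (adjusted p = 0.3124), and by -0.25 after normexp correction. The summed scaled signal of 15 of these genes was 173.6 to 193.9 with MPLE and at most 146.3 in controls. Without grap2 the sums overlapped, 30.7 to 35.5 with MPLE and 28.7 to 52.2 in controls. Both sums left out pik3r1 and skap2, whose spots on control pool 3 were outliers. Over the remaining arrays these genes differed by 0.68 and -0.23.

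Of 22 lineage transcription factors 18 were tested. Only 7 were above 0 and the median was -0.29, with 1 gene, eomes, above on every MPLE array and 4 below. The median was -0.06 without control pool 3. The Ikaros family factor ikzf2, a regulatory T cell marker in mammals, was at -3.31, -3.03 and -3.39 with MPLE and -2.456, -1.833 and -2.004 in controls (-1.14, adjusted p = 0.1117, and -1.10 without control pool 3), with 2 of 3 MPLE spots well above background. The other named factors were tcf3a at -0.83 (adjusted p = 0.3673, and -0.33 without control pool 3), klf2a at -0.46 (0.391, and -0.29 without that pool) and stat6, which transmits interleukin 4 signals, at -0.43 (0.3825). The T-box factor tbx21, which acts beside Eomesodermin in mammals, was on the array but was not well above background throughout either diet.

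Of the 9 cytotoxic granule and killing genes tested, 3 were above 0, with a median of -0.24 (-0.08 without control pool 3) and 1 at an unadjusted p under 0.05. That gene, the executioner caspase casp3a, is expressed by many cells besides lymphocytes. It was at 1.81, 2.03 and 1.92 with MPLE, against 1.569, 1.198 and 0.0038 in controls (1.00, adjusted p = 0.2816, and 0.54 without control pool 3). The granule fusion protein stx11a was at -0.99, the granule proteoglycan srgn at -0.32 and the death ligand faslg at -0.45, with adjusted p between 0.4036 and 0.6549. These were -0.28, -0.18 and 0.17 when control pool 3 was left out.

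Of 8 T cell cytokines and receptors tested, 6 were above 0, with a median of 0.26 and 2 at an unadjusted p under 0.05. With control pool 3 left out, 4 were above 0 and the median was 0.07. Interferon gamma, ifng, the main cytokine of cytotoxic and type 1 helper cells in mammals, was likewise well above background on 0 of 3 control arrays. It was at -2.24, -3.08 and -3.49 with MPLE and -4.22, -4.42 and -3.68 in controls. It too entered through the MPLE arrays alone, with a measured difference of 1.17 (adjusted p = 0.1987) and one of -0.34 after normexp correction. The suppressive cytokine tgfb1a was at 1.63, 1.901 and 1.44 with MPLE and 2.87, 1.88 and 2.87 in controls (-0.89, adjusted p = 0.2558), with control pool 2 among the MPLE pools. The gut homing receptor ccr9a (0.38) and the interleukin 12 receptor chain il12rb2 (0.65) had adjusted p of 0.4726 and 0.5524, and differed by 0.41 and -0.02 without control pool 3.

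Markers of other cells in the tissue were read beside these genes. Of 9 B cell markers 2 were above 0 and 0 were free of overlap, with sums of scaled signal of 82.3 to 110.6 with MPLE and 80 to 195.5 in controls. Of 7 skeletal muscle markers, a tissue outside the head kidney, 5 were below on every MPLE array (median -1.69), with sums of 5.07 to 9.87 with MPLE and 13.7 to 63.3 in controls. Median differences were -0.26 for monocytes and macrophages, 0.21 for neutrophils, -0.40 for thrombocytes, 0.15 for red cells and progenitors and -0.06 for interrenal cells. With control pool 3 left out these were -0.02, 0.28, -0.14, 0.28 and 0.22, and muscle was at -1.47. Single markers within these lists also lay wholly above the controls on the MPLE arrays, as lck, CD4 and eomes did. They were the globins hba (1.27) and hbb (1.46) and the blood group protein gene rhag (0.28) of red cells, csf3r (1.14), the receptor of a neutrophil growth factor, and cebpb (0.70) and c1qb (0.50) of monocytes and macrophages. Wholly below were gata1 (-0.61), mpx (-0.92), mpeg1.1 (-0.53), cebpa (-0.57) and itga2b (-0.97). Outlier spots left out MPLE pool 2 for hba and hbb and control pool 3 for mpx. The interrenal genes star, mrap and hsd3b1 were well above background on all 6 arrays. The part of these cells in the differences of lck, CD4 and eomes was not tested. Of 10 spike-in probes for RNA added at labelling, E1A_r60_3 and E1A_r60_n9 differed by 2.91 and 2.15 between the diets, more than any of the 8 genes, and the other 8 by -0.49 to 0.71.

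The 3 genes that did not overlap kept a positive difference under the settings tried, but not always their separation. Over 19 settings lck ran from 0.21 to 1.23 and CD4 from 0.15 to 1.81, and over 18 settings eomes ran from 0.59 to 2.24. The upper ends were all those of the unscaled series values, where the median difference of all probes was itself 1.05. The filters, the variance model with an intensity trend, the block for pool number and the mean over a gene's probes left these differences unchanged wherever computed. Those settings therefore do not test the sign. Genes lck and CD4 did not pass the adjusted threshold in any of these, and eomes passed once, with array weights. In that setting 2971 of the 23130 tested probes passed, so the pass does not set eomes apart. The diets overlapped for lck with spike-in centring (0.22), after normexp correction (0.21) and in the scaled series values (0.40), for CD4 with median centring (0.55) and spike-in centring (0.15), and for eomes with spike-in centring (0.60). With spike-in centring the separated genes were gata3, foxp3b, gzma and prf1.5, all below the controls. The median difference of all probes was itself -0.46 there, with 929 probes higher and 7313 lower at an unadjusted p under 0.05 by limma. That centring subtracts the mean of all spike-in spots of an array, those of E1A_r60_3 and E1A_r60_n9 included. The other 5 genes took both signs over the settings. Of these, gzma was above 0 only in the unscaled series values, and foxp3b only there and, at 0.04, with array weights.

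**Figure D5:**
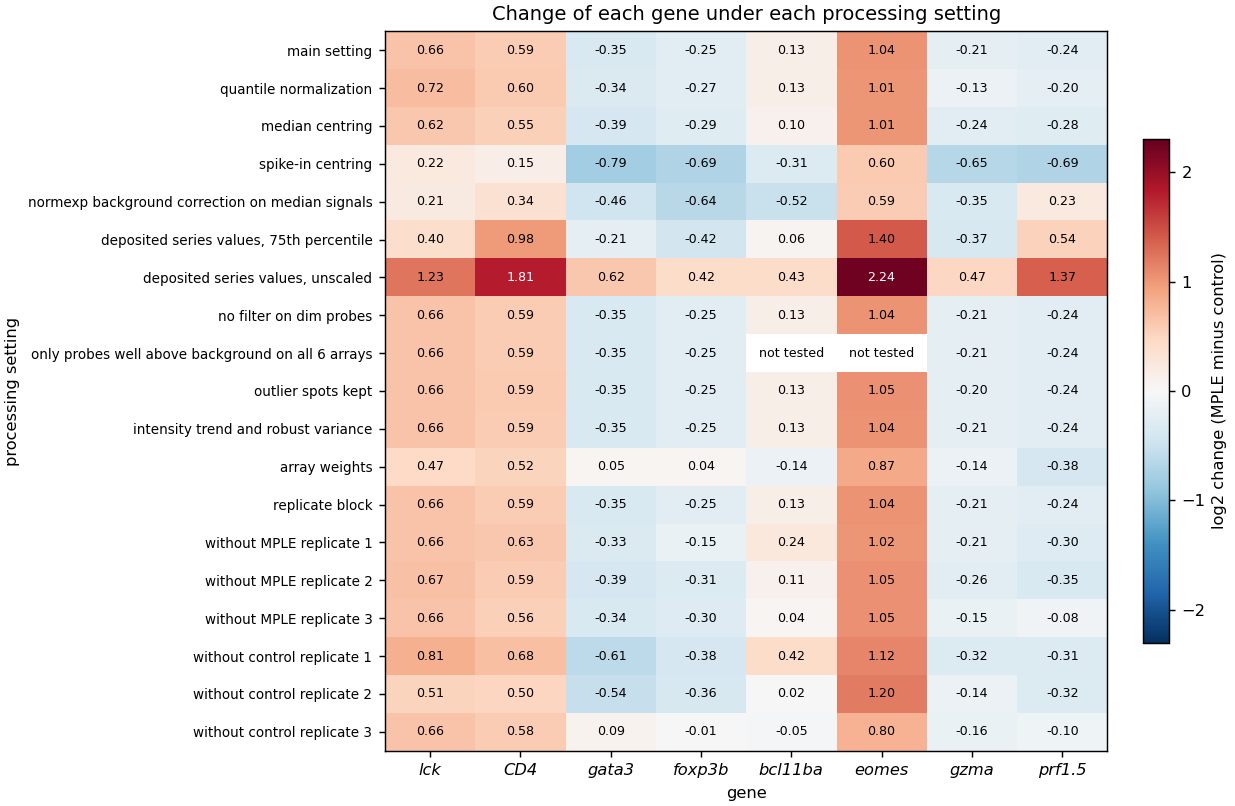
Difference of each gene, MPLE minus control on the log2 scale, under each processing setting, with 1 row per setting and 1 column per gene; the top row is the setting used in the text, and replicate numbers are pool numbers. The columns of lck, CD4 and eomes are positive wherever a value was computed, and the other 5 columns hold both signs.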

How the data were processed

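Per the labels' protocols, RNA was labelled with Cy3 beside spike-in RNA and put on Agilent arrays of 1 colour. Design 084881 was read, per the file headers, with Feature Extraction 10.7.3.1 (protocol GE1_107_Sep09). The deposited processed intensity had its background subtracted and was detrended on each array, and arrays were not scaled to each other. The authors also deposited log2 values, which equalled log2 of the background-subtracted intensity within 5e-09, with column medians of 6.23 to 7.52 (MPLE) and 5.19 to 7.02 (control).

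Each array's 75th percentile over 42438 spots that are not controls was subtracted from log2 processed intensity. Outlier spots (6 to 205 per array) were left out. Probes were kept if well above background on all arrays of either diet and with at least 2 values per diet. They were tested with limma 3.58.1 in R 4.3.3 (lmFit and eBayes, two-sided, Benjamini-Hochberg over 23130 probes, threshold 0.05). The same steps were also run on simulated data, as a check of the code. There each probe had equal noise in both diets and no array was set apart, unlike in these data. A gene was read at its brightest probe. Names came from a RefSeq gene table of assembly Ssal_v3.1, with 25641 probes matched to a gene. No coordinates are printed, the build of the array being not stated in the labels or headers. Scaled signals are processed intensities over the 75th percentile.

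The members and lists were chosen with earlier results of these data known. Named list genes were the 4 of each list with the smallest unadjusted p that were not members, and 3 nearest patterns were named for lck and eomes. Pool numbers did not pair the samples. Alternatives were other scalings, background corrections, filters, variance models, a block for pool number and leaving out each array. The design text speaks of a reference design, but the files are one-colour and were read as such.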

Additional observations from a re-analysis of the deposited data

How the results depend on the processing

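The number of probes past the adjusted threshold was 108 and depended strongly on the setting. It was 24 with quantile normalization, 558 with median centring, 14 with spike-in centring, 28 after normexp correction on median signals, 9 in the deposited series values scaled to the 75th percentile, 0 in the unscaled series values (3790 higher and 51 lower at unadjusted p under 0.05), 0 with no filter on dim probes (2350 higher and 1757 lower) and 2971 with array weights. Leaving out 1 array gave 0 to 164, with 0 when any 1 MPLE pool was dropped, and 5, 164 and 140 when control pool 1, 2 or 3 was dropped. At unadjusted p, 2661 probes were higher and 1363 lower, against 2611 and 1690 with quantile normalization, 929 and 7313 with spike-in centring, 1579 and 2461 after normexp and 2238 and 450 in the scaled series values. The median of all probes moved to -0.46, -0.21, 0.22 and 1.05 with spike-in centring, normexp and the scaled and unscaled series values. Same-numbered pools did not deviate together (correlations -0.18, -0.34 and 0.08), and the replicate block gave 475 probes and 0 of the 8 genes. Of the 8 genes 1 passed with array weights, eomes (0.87, adjusted p = 0.01523 by limma), where 2971 of the 23130 tested probes passed. The count of genes without overlap was 3, all higher, beside 28.2% of all tested probes without overlap in either direction. After normexp it was 5 (CD4 and eomes higher, gata3, foxp3b and bcl11ba lower) and in the unscaled series values 5 (all higher). With spike-in centring it was 4 (all lower, without lck, CD4 and eomes). With 1 array left out the count was 3 to 5, 5 being without control pool 1 (lck, CD4, bcl11ba and eomes higher, gzma lower). There bcl11ba and eomes entered through the MPLE arrays alone. The share of all probes without overlap was not counted for any of these other settings. Leaving out an array can add separations but cannot remove any, so those counts are not like the count over all arrays. Cytotoxic minus helper, -0.34, was 0.69 after normexp, 0.48 and 0.75 in the scaled and unscaled series values, and -0.73 to -0.13 with 1 array left out. For bcl11ba the difference was -0.31 with spike-in centring, -0.52 after normexp, -0.14 with array weights and -0.046 to 0.42 with 1 array left out. For prf1.5 it was 0.23 after normexp and 0.54 and 1.37 in the scaled and unscaled series values. For gata3 it was 0.62 in the unscaled series values, 0.045 with array weights and -0.61 to 0.087 with 1 array left out. For foxp3b it was 0.42 in the unscaled series values and 0.043 with array weights, and for gzma 0.47 in the unscaled series values. With spike-in centring gata3, foxp3b, gzma and prf1.5 were at -0.79, -0.69, -0.65 and -0.69 (adjusted p 0.1001 to 0.1525 by limma), and foxp3b was at -0.64 after normexp. Of the 60 list genes, 5 passed with array weights (cd40lg, grap2 and eomes higher, ikzf2 and tgfb1a lower), where 2971 of the 23130 tested probes passed. Of these 5, cd40lg and eomes entered through the MPLE arrays alone and ikzf2 through the control arrays alone. With 1 array left out 0 to 1 list genes passed, the 1 being cd40lg, dim on all control arrays, without control pool 3. The cause of these changes was not tested. The settings tried on the list genes were chosen after seeing the data. No slide held more than 1 array, so a slide block could not be fitted. With 3 arrays a diet and bcl11ba and eomes near background on control pool 3, small differences were not detectable.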

Other observations

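Of the 74 T cell list genes on the array, 14 were not well above background on every array of either diet and have no difference in this comparison. They include tbx21, the cytokine gene il21, the receptor il23r, the calcineurin subunit ppp3ca and its target nfatc1.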
